A study of Mus musculus with 9 samples.

Results

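The microvillus genes described here are 10 genes whose proteins build the brush border of the enterocyte. Vil1, Espn, Eps8 and Pls1 organise the actin core, Myo1a and Ezr tie the membrane to it, Cdhr2, Cdhr5 and Ush1c link neighbouring tips, and Muc13 coats the surface. They were chosen by name, and each is represented by its brightest probe set among those annotated to that gene alone. All 10 were found, with 14 probe sets between them, out of 18193 genes and 45037 probe sets. All 10 brightest probe sets passed the filter on low signal, which was set on the mean over all arrays.

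RNA came from mucosal scrapings of the small bowel of C57BL/6J mice, all male and 9 weeks old when the diets began. After 2 weeks, each intestine was cut into 3 parts of equal length, SI3 (distal), SI2 (middle) and SI1 (proximal, next to the stomach). The diets were high in fat and differed in its source, with palm oil in HF-PO, safflower oil in HF-SO and olive oil in HF-OO, and the labels give HF-PO the lowest P/S value and HF-SO the highest. RNA of 6 mice was pooled for each diet and part, so there are 9 arrays, 3 pools for each segment and 1 array for each diet within a segment. Every group was on a high-fat diet, and a low-fat group was not analysed here. Pooling hides the differences between mice, so each SD below is the spread between 3 pools that also differ in diet.

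A microvillus is a finger of membrane around a bundle of parallel actin filaments, and a dense lawn of them forms the brush border on which digestion ends and uptake begins. Villin, espin and plastin bundle the filaments, while EPS8 sits at the tip where filaments grow. Cadherin-related proteins reach from tip to tip and keep the microvilli packed, held from inside by a scaffold that includes harmonin. Brush border is present along the whole small intestine.

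The values are MAS5 signals, the linear intensity that Affymetrix's single-array method gives each probe set. Array medians ran from 94.4 to 105.9, and the brightest probe set of an array from 44534 to 56944. The brightest member, Vil1, reached 63.2% of the highest signal of its array. The number of arrays limits the precision. The expected epithelium was present in every segment: 5 enterocyte markers summed to 134091 to 157926 in SI3, 151272 to 158977 in SI2 and 144559 to 172504 in SI1. In this bulk material, fewer cells of a type and less RNA per cell cannot be told apart. Exocrine pancreas markers (4 genes) summed to 123 to 303 in SI3, 201 to 337 in SI2 and 18583 to 22816 in SI1, although the labels say that pancreatic tissue was removed. Their part in the results below was not tested.

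Promoters from RefSeq (GRCm38.p6) are shown for Myo1a, the member whose brightest probe set passed the test between segments described below. Vil1, a core member, and Cdhr5, an adhesion member, are shown too, and their probe sets did not pass. Each line runs from 250 bases before to 50 bases after the gene start, 5′ to 3′ on the gene's strand. Capitals mark 3 motifs searched on both strands: TTTAT, the core bound by CDX2, CAAAG, a half-site of HNF4, and the CArG box of SRF, which was searched by its usual consensus. The matches shown do not overlap one another.
Vil1 (chr1:74409134-74409433, plus strand): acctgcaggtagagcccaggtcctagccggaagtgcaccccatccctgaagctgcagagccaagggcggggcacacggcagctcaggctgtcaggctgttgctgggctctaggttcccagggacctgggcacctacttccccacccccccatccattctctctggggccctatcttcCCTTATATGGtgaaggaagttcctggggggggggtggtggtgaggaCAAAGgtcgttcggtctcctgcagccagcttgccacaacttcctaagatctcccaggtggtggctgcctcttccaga
Cdhr5 (chr7:141276737-141277036, minus strand): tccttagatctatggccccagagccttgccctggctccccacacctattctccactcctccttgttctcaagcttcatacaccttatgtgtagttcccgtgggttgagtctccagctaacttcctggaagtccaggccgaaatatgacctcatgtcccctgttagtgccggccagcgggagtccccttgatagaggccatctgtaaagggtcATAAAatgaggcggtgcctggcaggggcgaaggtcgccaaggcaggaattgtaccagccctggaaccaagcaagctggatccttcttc
Myo1a (chr10:127705006-127705305, plus strand): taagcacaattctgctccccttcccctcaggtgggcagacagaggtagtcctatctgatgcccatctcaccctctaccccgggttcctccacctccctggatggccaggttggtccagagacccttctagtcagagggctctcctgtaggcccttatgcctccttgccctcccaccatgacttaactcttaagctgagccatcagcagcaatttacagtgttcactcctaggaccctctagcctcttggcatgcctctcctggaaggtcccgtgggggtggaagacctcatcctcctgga
Promoters were found for 9 of the 10 genes, 12 windows in all. TTTAT was in 3 of the 12 windows, against 40.0% of 32851 windows of the same length, and CAAAG was in 7, against 53.9%. The CArG box was in 1 window, that of Vil1, against 1.63%. The window of Myo1a held none of the 3. A match describes the letters and is not evidence of binding.

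The comparison of segments asks whether the machinery of the microvillus is expressed evenly along the intestine. The differences were small. Between SI3 and SI1 the 10 genes differed by -0.23 to 0.29 on the log2(signal + 16) scale, the scale of all log2 differences below. Among their brightest probe sets, that of Myo1a alone passed the threshold, an adjusted p under 0.05 from limma over all 22519 probe sets tested. Of all tested, 44.3% passed, 25.0% higher in SI3 and 19.2% lower. At an unadjusted p under 0.05 there were 3 members, and 52.6% of all. Among the 2640 tested probe sets within the brightness range of these genes, 57.8% passed. That range runs from Espn, the dimmest member, to Vil1. Espn and Ush1c lie well below the others, so the range is wider than the brightness of most members. The median size of the difference, regardless of sign, was 0.21 for the 10 genes, 0.32 for all probe sets tested and 0.33 within that brightness range. In all 3 segment comparisons, the 95% interval of the brightest probe set of each gene lay within a 1.5-fold difference in either direction. Some intervals of other probe sets ran further. For SI3 over SI1, the upper bound was 1.54-fold for another Eps8 set and 1.67-fold for another Ezr set. The upper bound of that Ezr set was 1.61-fold for SI2 over SI1 and 1.62-fold for SI3 over SI2. The intervals are per gene and not adjusted for the number of genes. Over the 9 arrays, the highest signal of a member was 1.23 to 1.63 times its lowest.

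**Figure D1:**
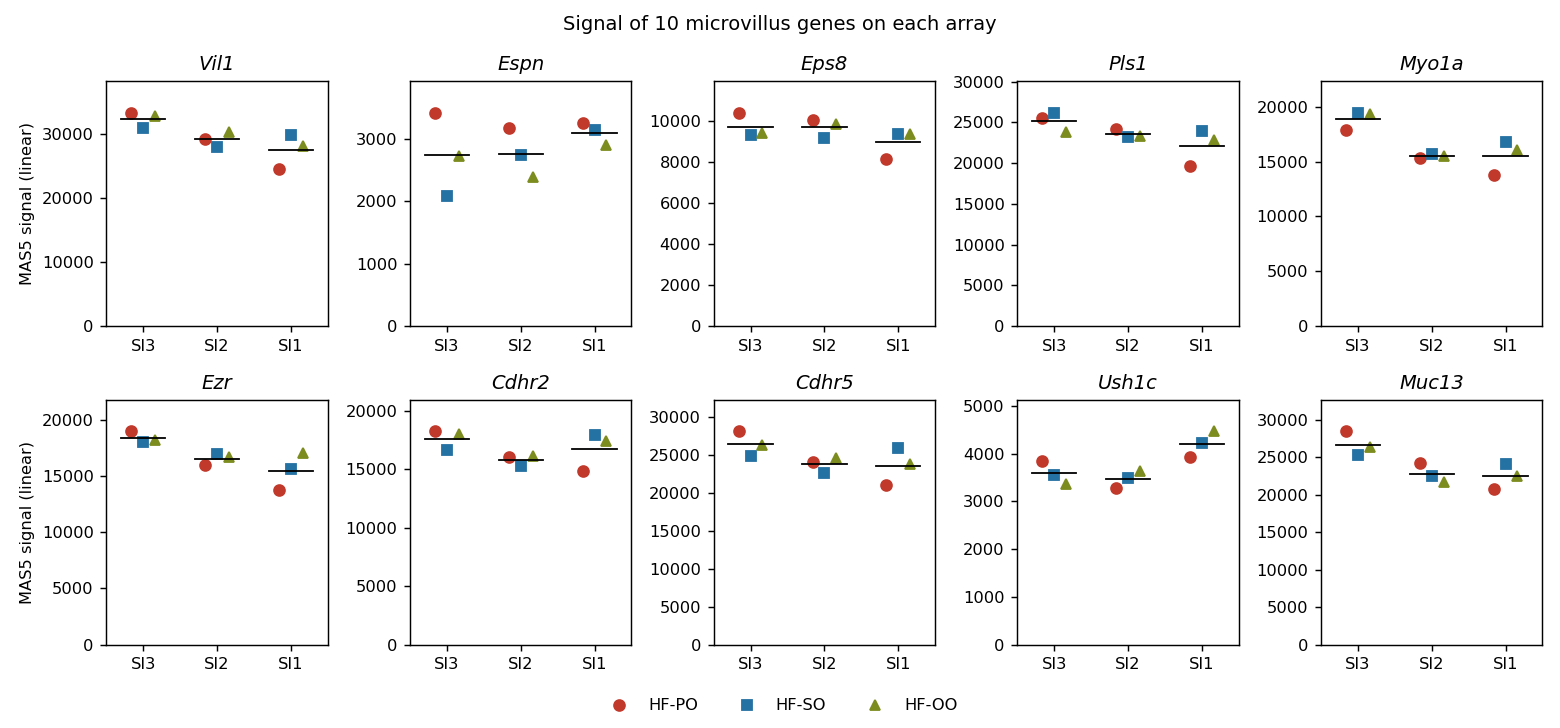
Linear MAS5 signal (vertical axes, from 0) of each of the 10 genes on the 9 arrays, by segment, with a symbol for each diet pool and a line at the mean of the 3 pools. The points of a gene stay within 1.63-fold of each other, the widest being Espn, and the HF-PO point is the lowest of SI1 for 9 of the 10 genes.

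Of the brightest probe sets of the 4 actin core genes, none passed in any segment comparison. Vil1, villin, which bundles actin and can also sever it, had signals of 33368, 30974 and 32821 in SI3 (with HF-PO, HF-SO and HF-OO, as in each run of 3 signals below), 29253, 28098 and 30366 in SI2 and 24595, 29981 and 28125 in SI1. The SI3 arrays were all above those of SI2 and SI1, while the ranges of SI2 and SI1 overlapped. The SI3 minus SI1 difference was 0.24 (SE 0.10, adjusted p = 0.0962).

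Pls1, plastin 1, which cross-links filaments into the bundle, averaged 25173 ± 1243 in SI3, 23533 ± 538 in SI2 and 22155 ± 2211 in SI1 (SD, n = 3 pools, as for all means below). Its arrays overlapped in every comparison, and SI3 minus SI1 was 0.19 (SE 0.10, adjusted p = 0.165). By their means, Vil1 and Pls1 thus shared the order SI3, SI2, SI1 from high to low, as did Eps8, Ezr, Cdhr5 and Muc13. No neighbours in this order passed the test for the brightest probe sets.

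Espn, espin, a small bundler that sets filament length, was the most variable member. Its signals were 3416, 2092 and 2726 in SI3, 3167, 2740 and 2389 in SI2 and 3250, 3138 and 2902 in SI1. The 3 segments overlapped. SI3 minus SI1 was -0.20 (SE 0.14, adjusted p = 0.288), with an interval of -0.53 to 0.13, the widest of the 10.

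Eps8, which caps and bundles filaments at the tip, averaged 9705 ± 599.9 in SI3, 9701 ± 464 in SI2 and 8956 ± 698 in SI1 by its brightest probe set. SI3 minus SI1 was 0.12 (SE 0.10, adjusted p = 0.386), and the interval of SI3 minus SI2 ran from -0.24 to 0.24. Its other 2 probe sets disagreed with each other. One, an _a_at set in Affymetrix's naming, stood at 4570, 4442 and 4388 in SI3, 4174, 4225 and 4188 in SI2 and 3143, 3304 and 3575 in SI1, with no overlap between any of the segments. It was higher in SI3 than in SI1 by 0.42 (SE 0.09, adjusted p = 0.00718) and in SI2 than in SI1 by 0.33 (adjusted p = 0.0444). The other, an _s_at set, averaged 6816 ± 202 in SI3, 6883 ± 201 in SI2 and 7246 ± 229 in SI1, a SI3 minus SI1 difference of -0.09 (adjusted p = 0.407). An _a_at set matches alternative transcripts of one gene and an _s_at set may match more than one transcript family, so the 3 sets need not report the same RNAs.

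**Figure D2:**
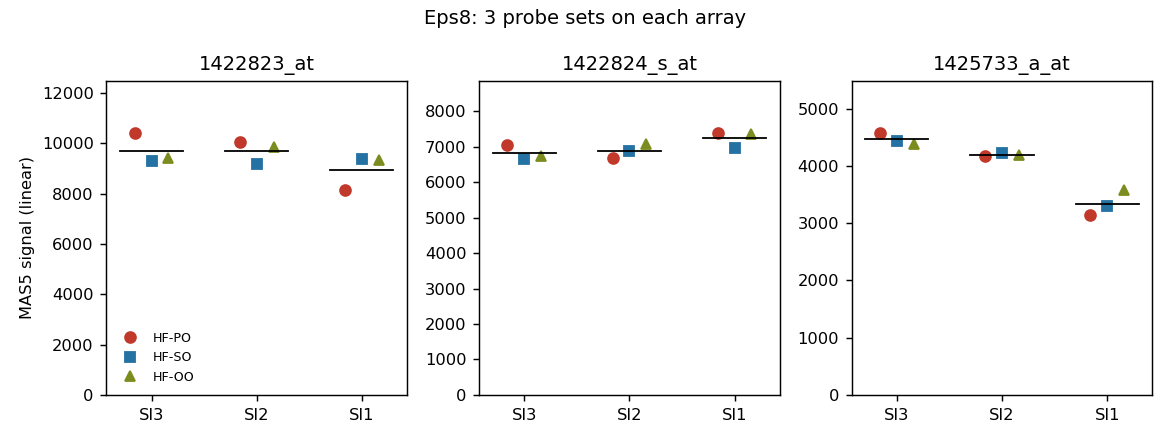
Linear MAS5 signal (vertical axes, from 0) of the 3 Eps8 probe sets by segment and diet pool, with lines at the means of 3 pools. The _a_at set is lowest in SI1, at 3143 to 3575, while the other 2 change less between segments.

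The membrane linkers were highest in SI3. Myo1a, the brush border myosin that tethers the membrane along the sides of the core, had signals of 17907, 19436 and 19350 in SI3, 15307, 15708 and 15515 in SI2 and 13767, 16813 and 16043 in SI1. The SI3 arrays were above all others, and SI2 lay inside the range of SI1. Myo1a rose by 0.29 in SI3 over SI1 (SE 0.09, interval 0.08 to 0.49, adjusted p = 0.0328), in all 3 pools, by 0.38, 0.21 and 0.27. SI3 minus SI2 was nearly as large, 0.28 (SE 0.09, adjusted p = 0.0579), and SI2 minus SI1 was 0.00 (adjusted p = 0.990). Over the 3 segments together, Myo1a alone among the 10 brightest probe sets passed the F test (adjusted p = 0.0484), which 40.7% of all passed. The _a_at set of Eps8 passed the F test too (adjusted p = 0.0155). The SI3 minus SI1 call of Myo1a was lost when a pool was left out: HF-PO (adjusted p = 0.126), HF-SO (0.0966) or HF-OO (0.156). The same held with only the SI1 array of HF-PO left out (0.104). It was also lost with quantile normalization (0.0944) and with no filter on low signals (0.137).

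Ezr, ezrin, which binds membrane proteins at one end and actin at the other, had signals of 18995, 18082 and 18244 in SI3, 15969, 16992 and 16754 in SI2 and 13764, 15612 and 17043 in SI1. The SI3 arrays lay above all the others. SI3 minus SI1 was 0.26 (SE 0.10, adjusted p = 0.0660), positive in all 3 pools, and in a fit without the diet pool as a block it passed (adjusted p = 0.0492), the only member whose call that fit changed. A second, dim Ezr probe set, at 391 ± 70.6 in SI3, 381 ± 109 in SI2 and 377 ± 149 in SI1, had a difference of 0.10 with an interval of -0.54 to 0.74.

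**Figure D3:**
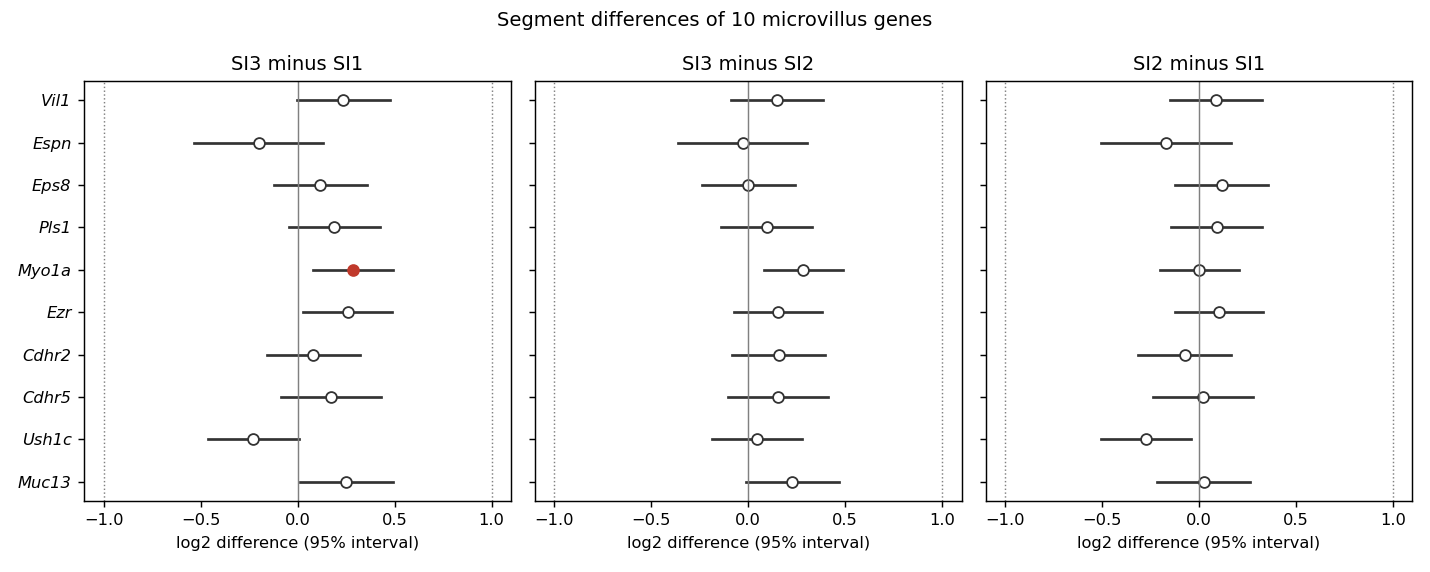
Difference between segments on the log2(signal + 16) scale (horizontal axes) with 95% intervals for the 10 genes; filled points passed an adjusted p of 0.05 and dotted lines mark a 2-fold difference. Myo1a in SI3 minus SI1 is the filled point, and no interval reaches a dotted line.

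The 2 adhesion cadherins did not pass in any comparison. Cdhr2, a long cadherin-related protein, and Cdhr5, a shorter mucin-like one, bind each other between the tips. Cdhr2 had signals of 18241, 16657 and 18008 in SI3, 16025, 15311 and 16128 in SI2 and 14830, 17921 and 17389 in SI1. Its SI3 arrays were above those of SI2 and overlapped SI1, and SI3 minus SI1 was 0.08 (SE 0.10, adjusted p = 0.546). Cdhr5 averaged 26369 ± 1603 in SI3, 23719 ± 1012 in SI2 and 23484 ± 2427 in SI1, a SI3 minus SI1 difference of 0.17 (SE 0.11, adjusted p = 0.243). Both differences were positive in 2 of 3 pools.

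Ush1c, harmonin, the scaffold that holds the cadherin tails, was the member with its highest signals in SI1 and separated arrays. It stood at 3845, 3554 and 3371 in SI3, 3288, 3493 and 3639 in SI2 and 3929, 4225 and 4462 in SI1. Every SI1 array was above every array of SI3 and SI2, which overlapped each other. SI2 minus SI1 was -0.27 (SE 0.10, adjusted p = 0.107) and SI3 minus SI1 was -0.23 (SE 0.10, adjusted p = 0.101), each negative in 3 of 3 pools, and neither passed.

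Muc13, a membrane-spanning mucin of the enterocyte and goblet cell surface, had signals of 28405, 25313 and 26285 in SI3, 24246, 22535 and 21609 in SI2 and 20701, 24118 and 22483 in SI1. Its SI3 arrays were above all others, and SI3 minus SI1 was 0.25 (SE 0.10, adjusted p = 0.0837). A second Muc13 probe set gave 0.18 with overlapping arrays (adjusted p = 0.275). Of 8 goblet cell markers, 7 passed as higher in SI3 than in SI1, as did 25.0% of all probe sets tested. The other, Zg16, was higher by 0.15 and did not pass. Goblet markers summed to 195437 to 209031 in SI3 and 125494 to 145753 in SI1, and their part in the Muc13 signal was not tested.

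Counted over the 10 genes, SI3 minus SI1 was positive for 8 and negative for 2 (Espn and Ush1c), with a median of 0.18, where the median of all probe sets tested was 0.08. SI3 arrays did not overlap SI1 arrays for 5 genes, 4 higher and 1 lower, where 55.4% of all probe sets tested were apart, 31.9% higher and 23.5% lower. Between SI3 and SI2, 0 of 10 passed in limma (21.3% of all), and 1 had an unadjusted p under 0.05 (35.9% of all). The median was 0.15, against 0.03 for all, and 6 genes had every SI3 array above every SI2 array, as did 22.6% of all. Those 6 were Vil1, Myo1a, Ezr, Cdhr2, Cdhr5 and Muc13. Arrays were apart in either direction for 40.7% of all. With quantile normalization this median was 0.04, against 0.02 for all. Between SI2 and SI1, 0 of 10 passed in limma (15.0% of all), and 1 had an unadjusted p under 0.05 (31.8% of all). The median was 0.02, against 0.03 for all, and the arrays were apart for Ush1c alone, lower in SI2, against 37.6% of all in either direction and 16.6% lower. This median turned to -0.07 with the HF-PO pool left out and also to -0.07 with only its SI1 array left out, where that of all was 0.04. A p that misses the threshold does not show equal expression, so the intervals give what the data allow. For SI3 over SI1, the outermost bounds of the 10 brightest probe sets were ratios of 0.691 (Espn) and 1.40 (Myo1a). The upper bound of another Eps8 set was 1.54, and the interval of another Ezr set ran from 0.688 to 1.67. The SI3 minus SI1 median was 0.09 with quantile normalization, 0.07 with the HF-PO pool left out and 0.08 with only its SI1 array left out.

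Among partner proteins of the 10 named in this paragraph, Baiap2l1 alone passed in SI3 minus SI1. The other proteins of the tip-link complex did not pass in any comparison: Myo7b, its motor, had a SI3 minus SI1 difference of 0.07, Anks4b, a second scaffold, -0.12, and Calml4, a light chain of that motor, -0.14. Slc9a3r1, which anchors ezrin to membrane transporters, was at 0.15, and Cobl, an actin nucleator, at -0.22 (adjusted p = 0.0768), and neither passed. Baiap2l1, a membrane-bending partner of EPS8, rose to 4186 ± 74.2 in SI3, against 2795 ± 199 in SI1, by 0.58 (SE 0.09).

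The wider lists were written with earlier results of these data known, and their counts stand beside the 25.0% of all probe sets that were higher in SI3 and the 19.2% that were lower. Of 10 other core genes, 3 rose in SI3 over SI1 and 1 fell. The capping protein Capzb rose by 0.59 and the pointed-end cap Tmod3 by 0.43, and the actin monomer binder Pfn1 fell by 0.36. Of 10 membrane linkers and motors, 6 rose and 3 fell. The myosins Myo1d and Myo1e rose by 0.65 and 0.50, and Pdzk1, a scaffold of apical transporters, by 0.48. The 2 paralogs of ezrin went the other way: Rdx, radixin, fell to 182 ± 13.5 in SI3, against 362 ± 20.1 in SI1, and Msn, moesin, to 539 ± 76.9 in SI3, against 946 ± 117 in SI1. Slc9a3r2, a relative of Slc9a3r1, fell by 1.41. Macrophage markers (4 genes), which also fell in 4 of 4, summed to 1812 to 2140 in SI3 and 6925 to 7562 in SI1, and those of T cells (5 genes) to 1970 to 3244 in SI3 and 6380 to 8888 in SI1. The part of such cells in Msn and Rdx was not tested.

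In apical trafficking, 4 of 8 genes rose and 1 fell, with the recycling motor Myo5b up by 0.44, the fusion protein Stx3 by 0.35 and Vps33b by 1.33, while Rab8a fell by 0.31. In the terminal web and keratin list, 4 of 10 rose and 0 fell, among them the keratins Krt18 by 0.84 and Krt19 by 0.74 and the web myosin Myh14 by 0.76. Of 3 tested membrane mucins, Muc4 fell by 0.41 and the other 2 did not pass. Over the tip-link, core, linker, trafficking and web lists together, 22 of 41 genes passed, 17 higher in SI3. In either direction, 44.3% of all probe sets tested passed, and 57.8% of those in the brightness range of the 10 genes.

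Paralogs of the members passed in 7 of 11, where 44.3% of all probe sets tested did. Gsn, gelsolin, of the villin family, rose to 6126 ± 1005 in SI3, against 1291 ± 179.9 in SI1, by 2.23 (SE 0.09), and Scin, another of that family, by 0.80. The plastins Pls3 and Lcp1 fell by 0.72 and by 0.77, and Eps8l3 fell by 0.33. Brush border enzymes, which sit in the same membrane, passed in all 11 tested (against the same 44.3%), 6 higher in SI3 and 5 lower. The protease Mep1a was at 3.60 and Lct, lactase, at -0.75. The phosphatase Akp3 averaged 58.4 ± 12.2 in SI3, below the median of every array, against 23132 ± 3100 in SI1, so the size of its difference is not given. Among epithelial transcription factors, 4 of 11 rose and 3 fell. Srf, the CArG-box factor, rose to 812 ± 27.7 in SI3, against 445 ± 29.0 in SI1, and Cdx1 rose by 1.32, while Gata4 fell by 1.79.

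**Figure D4:**
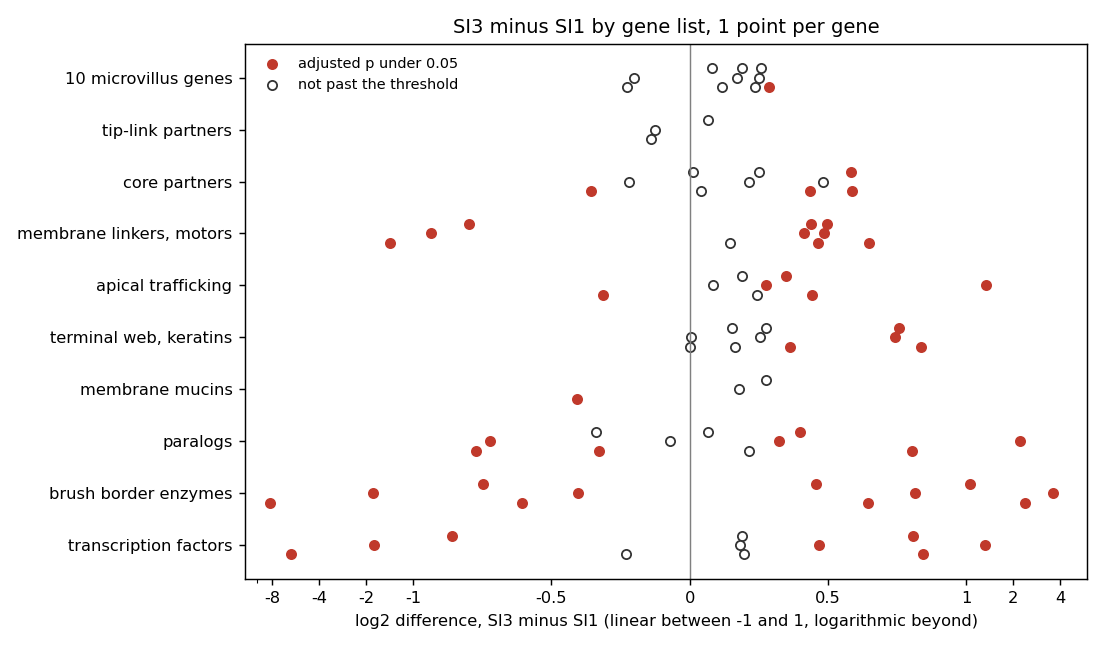
SI3 minus SI1 on the log2(signal + 16) scale (horizontal axis, linear between -1 and 1 and logarithmic beyond) for the genes of each list, 1 point per gene, filled where the adjusted p was under 0.05. The 10 microvillus genes span -0.23 to 0.29. The leftmost points of the enzymes (Akp3) and of the transcription factors (Onecut2) have SI3 signals below the array medians, so their positions are not exact.

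The comparison of diets asks whether the fat source changes these genes within a segment. With a single array for a diet in a segment, and the same mice behind its 3 segments, there is no replicate check and no test. A gene was called set apart where one diet lay 1.5-fold or more above, or below, each of the others. This held for 0 of the 10 in any diet and segment, for 12.6% of all probe sets tested in at least 1, and for 1.82% of those in the brightness range of the members, so a count of 0 is close to the share at that brightness. The median spread of a member, highest over lowest diet, was 1.11-fold in SI3, 1.08-fold in SI2 and 1.21-fold in SI1.

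Espn was the member with the widest spread between diets in SI3 and SI2. In SI3 it stood at 3416 with HF-PO, against 2092 with HF-SO and 2726 with HF-OO. In SI2 the signals were 3167 with HF-PO, against 2740 with HF-SO and 2389 with HF-OO, and in SI1 they were 3250 with HF-PO, against 3138 and 2902. HF-PO was thus the highest of the diets in all 3 segments, and Espn was alone among the 10 in this. Myo1a was the reverse: HF-PO was lowest, HF-OO next and HF-SO highest in every segment, though in SI2 the diets lay within 1.03-fold.

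In SI1, 9 of the 10 genes had their lowest signal with HF-PO, Espn being the exception, where 34.4% of all probe sets tested and 46.6% of those in the same brightness range did. The median HF-PO minus the mean of HF-SO and HF-OO was -0.24 over the 10 genes, from -0.25 for Myo1a to 0.11 for Espn, and 0.00 over all probe sets. Cdhr5 stood at 20953 with HF-PO, against 25792 with HF-SO and 23706 with HF-OO. In SI3 the order was different: 8 of the 10 had their highest signal with HF-PO (32.1% of all probe sets tested and 43.4% of those in the brightness range), and the median was 0.10, where that over all probe sets was -0.02 and that in the brightness range 0.02. In SI2, HF-PO was highest for 4 and lowest for 3 (32.0% and 35.9% of all), with a median of 0.03. The counts in SI3 and SI1 were the same with quantile normalization, where the medians were 0.07 in SI3 and -0.13 in SI1. With median centring they were 9 in SI3 (46.5% of all probe sets tested) and 9 in SI1 (25.8%), and the medians were 0.19 and -0.19.

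Other values moved with the SI1 array of HF-PO. Its highest signal was 44764, against 53480 with HF-SO and 50596 with HF-OO. Enterocyte markers (5 of 6 with a probe set, 0 of them averaging below the offset of 16) summed to 144559 with HF-PO, against 172504 with HF-SO and 161063 with HF-OO, and goblet markers (8 of 8) to 125494, against 145753 and 134280. Markers of stem and proliferating cells (5 of 6) summed to 12307 with HF-PO, against 9028 and 9256. Pancreas markers (4 of 5) summed to 22816, against 19459 and 18583. Paneth markers (4 of 5) summed to 37576, against 28425 and 30953, and enteroendocrine markers (5 of 5) to 9127, against 8220 and 8405. T cell markers (5 of 5) summed to 8888, against 7053 and 6380. These were highest with HF-PO in SI2 and SI3 too, at 5267 and 3244. On the SI1 array of HF-PO, macrophage, smooth muscle and tuft markers were lower than with either other diet. Those of B and plasma cells lay between the other diets. The part of all these cells in the microvillus signals was not tested. This array also enters SI3 minus SI1, which was higher in the HF-PO pool than in both other pools for 10 of the 10 genes, for 33.4% of all probe sets tested and for 51.1% of those in the brightness range. This count shares the array described above and is no separate result. For Vil1 it was 0.44 with HF-PO, against 0.05 with HF-SO and 0.22 with HF-OO, and for Cdhr2 0.30, against -0.11 and 0.05.

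**Figure D5:**
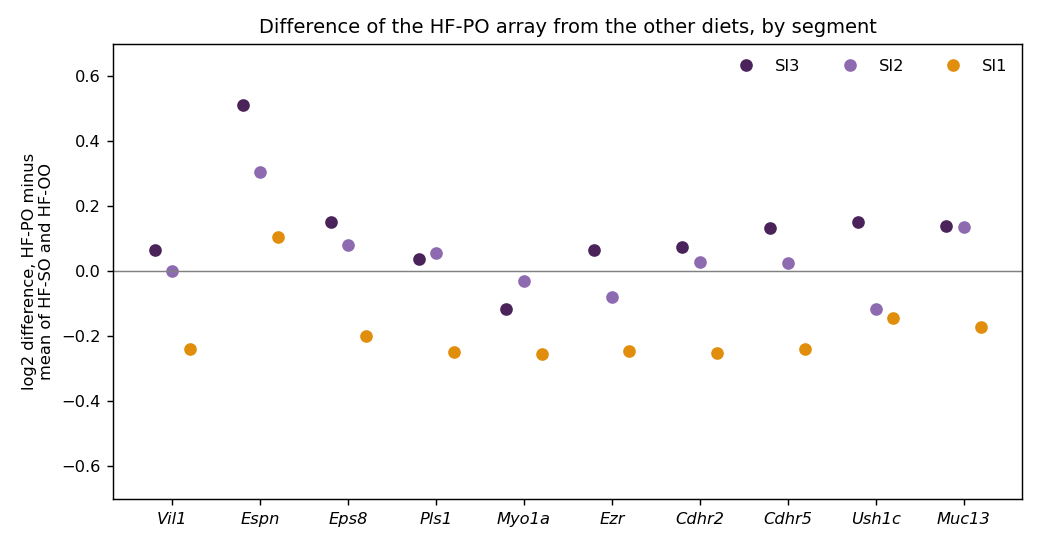
HF-PO minus the mean of HF-SO and HF-OO on the log2(signal + 16) scale (vertical axis) for the 10 genes, 1 point per segment, each from 3 single arrays. The SI1 points are below 0 for 9 of the 10 genes, with a median of -0.24, and the SI3 points above 0 for 9.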

How the data were processed

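Expression was measured on 9 Affymetrix arrays, 1 for each of 3 segments and 3 diets. The deposited values are linear MAS5 intensity signals, per the submitters' processing notes, which give no version; a trimmed mean of 500.0 on every array shows that they were scaled to a common target. After 64 control probe sets were left out, 45037 remained, of which 34945 were annotated to 1 gene symbol, 932 to several and 9160 to none. All 10 member symbols are current in RefSeq.

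Signals were taken as log2(signal + 16). Probe sets with a mean at or above the median of 6.80 were tested with limma 3.58.1 in R 4.3.3, with segment and diet pool as terms and Benjamini-Hochberg adjustment over all 22519. The pool enters as a block since 1 set of 6 mice gave all 3 segments. Deviations from segment means correlated at -0.05 to 0.15 within pools (9 pairs) and -0.13 to 0.05 between pools (18 pairs). With the pool as a term, the p-values rest on how far segment differences vary from pool to pool, not on differences between mice. The fit was tested on simulated data. Diets were compared as values, and a gene was set apart at 1.5-fold from both other diets.

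The members, lists and tests were chosen with earlier results of these data known. Every member is named, with chosen partner proteins, and from each other list up to 3 called genes at each end of SI3 minus SI1. Alternatives were pseudocounts of 1 and 64, no filter and a filter at the 75th percentile, quantile normalization, median centring, no block, the mean of a gene's probe sets, other diet thresholds and leaving out each pool. Leaving out the SI1 array of HF-PO was added after seeing the data.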

Additional observations from a re-analysis of the deposited data

Results flagged for a closer look

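For 4 genes the SI3 minus SI1 difference had one sign in 1 diet pool and the other sign in both other pools, on the log2(signal + 16) scale. Espn was 0.07 in the HF-PO pool, against -0.58 with HF-SO and -0.09 with HF-OO. In the HF-SO pool, Eps8 was -0.01, against 0.35 with HF-PO and 0.01 with HF-OO. Cdhr2 was -0.11 in the HF-SO pool, against 0.30 with HF-PO and 0.05 with HF-OO, and Cdhr5 was -0.05, against 0.42 with HF-PO and 0.15 with HF-OO. Each value is a difference of 2 single arrays, and the difference between pools was not tested. The share of all probe sets tested with such a change of sign is not given here, so the count of 4 has no background.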

How the results depend on the processing

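Of 360 log2 differences of the 10 genes recomputed under alternatives, 323 kept their direction and side of the threshold, 6 lost the call, 9 gained it and 22 changed sign. The count of members called in SI3 minus SI1, 1 as reported (44.3% of all probe sets tested), changed with some settings. It was 0 with no filter (15% of all) and with quantile normalization (43.1%). With the filter at the 75th percentile it was 5 (60.2%), namely Vil1, Myo1a, Ezr, Ush1c and Muc13. Without the replicate block it was 2 (45.2%), Myo1a and Ezr. It was 0 to 0 when each pool (24.7% to 33.7%), or the SI1 array of HF-PO (38.1%), was left out. The stricter filter fits and adjusts over fewer probe sets. Why these counts changed was not tested. In SI2 minus SI1, 0 as reported, the count was 1 with that filter (Ush1c), against 30.6% of all. In SI3 minus SI2, 0 as reported, it was 1 (Myo1a) with that filter (38.4% of all). The same held with a pseudocount of 64 (23.3%) and with median centring (21.3%). Over the 3 segments, 1 as reported, it was 0 with a pseudocount of 1 (39.4% of all), no filter (10.4%) and quantile normalization (39.5%). With the stricter filter it was 2 (61.2%), Myo1a and Ush1c. It was 0 to 0 with each pool (16.3% to 25.6%) or that array (34.4%) left out. At the looser diet threshold tried, 2 diet values were set apart, both of Espn in SI3 (HF-PO above, HF-SO below), against 0 at 1.5-fold. Removing the block changed no other call.

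The sign changes were all in differences that had not passed. With 1 pool, or only the SI1 array of HF-PO, left out, SI2 minus SI1 ranged from -0.0021 to 0.1803 for Vil1, -0.0098 to 0.1614 for Pls1, -0.0731 to 0.0523 for Myo1a, -0.1754 to 0.0016 for Cdhr2, -0.0879 to 0.1234 for Cdhr5 and -0.0781 to 0.0854 for Muc13. SI3 minus SI2 ranged from -0.1389 to 0.1489 for Espn, -0.0232 to 0.0325 for Eps8 and -0.0425 to 0.1247 for Ush1c, and SI3 minus SI1 from -0.0275 to 0.1744 for Cdhr2. In SI3 minus SI2, quantile normalization gave -0.0040 for Vil1, 0.0379 for Eps8 and -0.0409 for Pls1, median centring gave 0.0083 for Espn and 0.0377 for Eps8, and the mean of all probe sets gave 0.0252 for Eps8. In SI3 minus SI1, quantile normalization gave -0.0037 for Cdhr2.

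Over all probe sets tested, the number called over the 3 segments was 9154, against 4666 with no filter and 3680 to 5769 without 1 pool, and in SI3 minus SI2 it was 4787, against 1681 and 1317 to 2394. In SI2 minus SI1 it was 3375, against 604, 537 to 811 and, with only the SI1 array of HF-PO left out, 1949. In SI3 minus SI1 it was 9969, against 5551 to 7581 without 1 pool. With 3 pooled samples a segment, differences between mice were not measured.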
